A study of Mus musculus with 9 samples.

Results

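The 10 genes described here encode parts of the JAK-STAT pathway: the kinases Jak1 and Jak3, the transcription factors Stat3, Stat4, Stat5a, Stat5b and Stat6, and the feedback inhibitors Socs1, Socs3 and Cish. They were taken by gene symbol, and all 10 were found among the 46078 genes of the deposited count table. Their transcripts were compared between 6 mouse T cell lymphomas driven by MYCN, taken from the thymus, and 3 control libraries of CD4+ T cells from the spleen, by sequencing of RNA 3′ ends. The strain of all 9 libraries was C57BL/6J. Below, the groups go by the names lymphoma and CD4, and libraries by their labels' numbers (lymphoma 34, 53, 56, 70, 72 and 86, and CD4 1, 2 and 3). The labels give no MYCN allele, promoter, age, treatment or sorting gate, and do not say whether each lymphoma arose in a separate animal, so the p-values measure the spread between these libraries.

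JAK kinases sit on the tails of cytokine receptors. When a cytokine brings receptor chains together, the kinases phosphorylate the chains and then the STAT proteins that dock there, and the STATs pair and enter the nucleus to bind DNA. SOCS proteins and CISH are made in response, block the kinases or the docking sites and thereby end the signal. In T cells this pathway carries the signals of interleukins that act through the common gamma chain and of interferons, and it takes part in survival and in the choice between helper fates.

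Of the 10 genes, 7 fell in lymphoma (Jak1, Jak3, Stat3, Stat4, Socs1, Socs3 and Cish), none rose, and Stat5a, Stat5b and Stat6 did not pass the threshold of an adjusted p of 0.05 in edgeR's quasi-likelihood test. The comparison was wide: 46.6% of the 15401 tested genes passed it, 21.9% lower and 24.7% higher in lymphoma. The median log2 fold change (lymphoma over CD4) was -1.04 over the 10 genes and 0.0419 over all tested genes, whose quartiles were -0.917 and 0.916. In 8 of the 10 genes every lymphoma lay below every CD4 library, against 22.3% of tested genes. The 10 genes did not move as a block: Cish, Socs3 and Stat4 fell 44.2-fold, 41.6-fold and 27.2-fold, Stat3 3.53-fold, and Jak1, Jak3 and Socs1 between 1.89-fold and 2.15-fold. All 10 passed the filter on low counts, Cish through the CD4 libraries with only 1 lymphoma above the minimum of 0.694 CPM (counts per 1000000), so Cish could enter the test only by being high in CD4. The filter asked for 3 libraries above that minimum. The same limit holds for every gene below that is said to have passed through CD4.

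**Figure D1:**
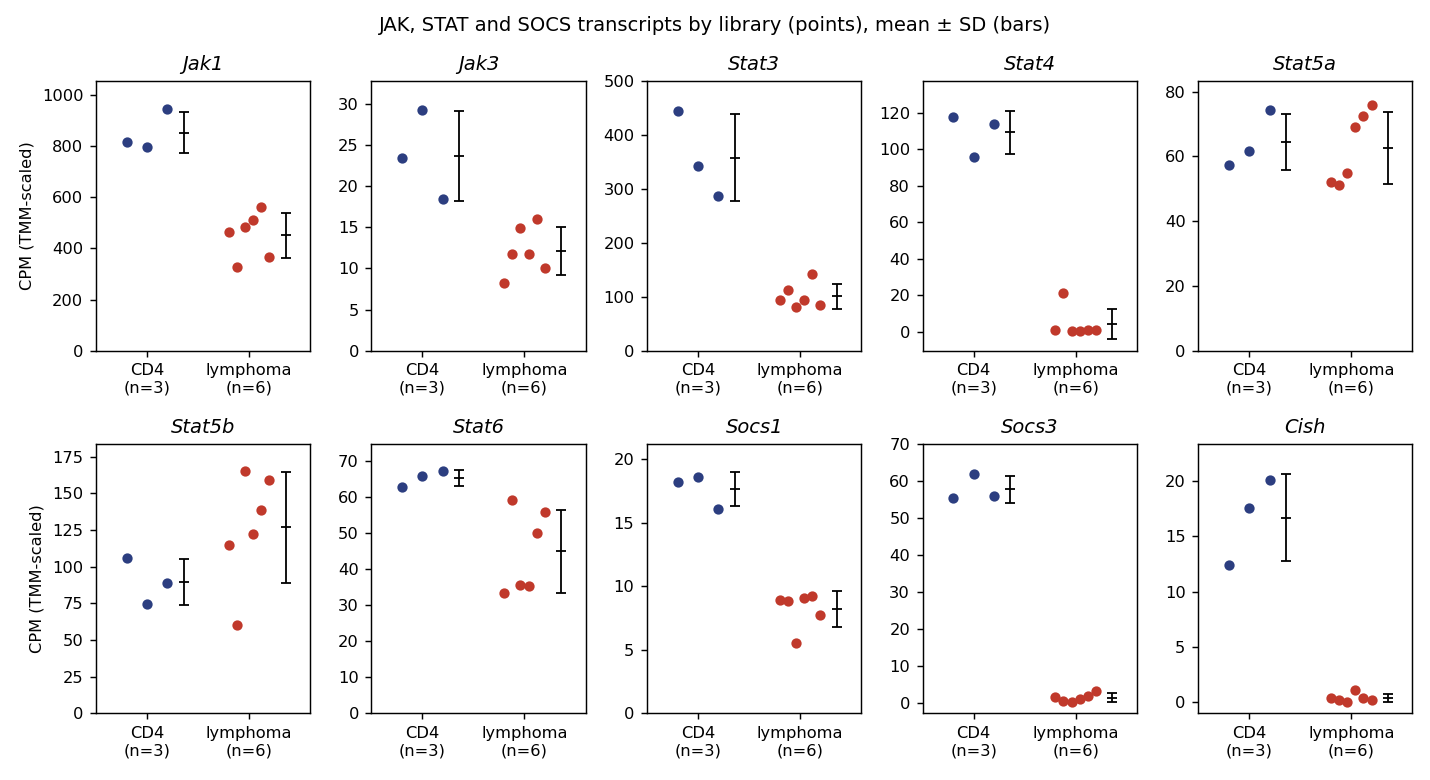
Transcript level of each gene in CPM (y axis, scaled with TMM) in 3 CD4 libraries (blue) and 6 lymphomas (red), with mean and SD as bars beside the points. The lymphomas lie below all CD4 libraries in every panel except Stat5a and Stat5b, and lymphoma 53 is the single raised point for Stat4.

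Gene counts were 11170704 to 15769679 per lymphoma and 8099960 to 10808828 per CD4 library, so that a count of 0 allows up to 0.19 to 0.269 and 0.278 to 0.37 CPM, counting error only. Tissue and group coincided. Sex did as well, with Xist counts of 64 to 176 in lymphoma and 4848 to 6162 in CD4, so these cannot be told apart from the lymphoma. The row of mouse Mycn held 0 to 3 counts in lymphoma and 0 to 6 in CD4, and checks no label because the driving MYCN sequence is not described. Of 14 T cell markers, 1 was higher, 2 were lower and 11 did not pass the threshold. They summed to 3168 to 6969 CPM in lymphoma and 5319 to 5617 CPM in CD4. The T cell receptor chains Cd3d and Cd3e did not differ past the threshold, whereas Cd4 fell from 240 to 35.3 CPM (adjusted p = 0.0111, edgeR). Lymphoma 53 stood apart, with 29.4 CPM of Cd8a and 18 CPM of Eomes, which were at most 1.53 and 0.291 CPM in the other lymphomas. Markers of other cells differed from list to list. Among all tested genes 21.9% were lower and 24.7% higher in lymphoma. All 15 B cell markers fell (summed CPM 259 to 425 in lymphoma, 2819 to 3459 in CD4), as did 8 of 9 plasmacytoid dendritic markers (55 to 132 and 642 to 690) and 7 of 9 regulatory T cell markers (110 to 388 and 596 to 789). Among these falls, 5 B cell, 2 plasmacytoid dendritic and 4 regulatory T cell genes passed the filter with the help of CD4. Those genes could only be tested by being high there. Myeloid markers summed to 84.3 to 2230 in lymphoma, the most in lymphoma 56, and 822 to 1033 in CD4, with 4 of 15 lower and 11 not past the threshold. Of 8 tested erythroid markers 1 was higher and 7 did not pass (sums 22.9 to 903 in lymphoma, 101 to 360 in CD4). Stromal and thymic epithelial markers, 7 tested, had 2 higher, 2 lower and 3 not past the threshold (97.8 to 181 and 221 to 241). In such bulk samples fewer cells of a type and less RNA per cell cannot be told apart, and the part of these cells in the results below was not tested.

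Start sites of the genes were read for the palindromic letters that STAT dimers are known to bind. RefSeq windows of 300 bases (250 before and 50 after the start, GRCm38.p6) were matched by symbol for all 10 genes, 13 windows in all. The letters TTCNNNGAA, which read the same on both strands, occurred in 2 of the 13 windows, those of Cish and Socs3, and in 8.3% of all 32851 windows. Cish held 2 matches, at bases 1 to 9 and 12 to 20 counted from the start site, and 0.457% of all windows held 2 or more. Socs3 held 1 match at bases -154 to -146. The STAT6 form of these letters, with 1 more base N in the middle, was in 0 of the 13 windows and 6.95% of all. CACGTG, the E-box of the MYC family, was in 0 of the 13 and 7.15% of all, and both read the same on either strand. No window of Stat4, the third gene with a large fall, held any of these letters. Stat4 has a further RefSeq window (chr1:52007990-52008289), which is not printed below. The Cish bases (chr9:107296654-107296683, plus strand, in the 5′ UTR exon of the transcript Cish-201 of GENCODE), and the 250 bases before the RefSeq start of Socs3 (chr11:117969367-117969616, minus strand, all inside the longer non-coding transcript Socs3-202 of GENCODE) and of Stat4 (chr1:51986898-51987147, plus strand) are shown because these genes had the 3 largest falls. Capitals mark TTCNNNGAA.
Cish: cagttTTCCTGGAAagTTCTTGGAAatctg
Socs3: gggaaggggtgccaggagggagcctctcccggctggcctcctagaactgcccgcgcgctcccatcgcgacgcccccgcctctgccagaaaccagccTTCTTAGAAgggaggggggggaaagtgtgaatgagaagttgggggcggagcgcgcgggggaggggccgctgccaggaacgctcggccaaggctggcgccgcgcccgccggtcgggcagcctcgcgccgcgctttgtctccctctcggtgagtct
Stat4: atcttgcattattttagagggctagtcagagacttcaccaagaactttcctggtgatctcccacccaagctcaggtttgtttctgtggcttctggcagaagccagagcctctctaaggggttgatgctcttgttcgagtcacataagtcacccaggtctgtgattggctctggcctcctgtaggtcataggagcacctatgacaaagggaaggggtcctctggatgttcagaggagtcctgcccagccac
These matches describe letters only, and binding of STAT proteins was not measured.

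The kinases fell about equally. Jak1 (ENSMUSG00000028530, chr4:101152367-101265282 on GRCm38, minus strand), the kinase paired with many cytokine and interferon receptors, was measured at 329 CPM (lowest), 473 (median) and 560 (highest) in the lymphomas. In CD4 1, 2 and 3 it stood at 816, 797 and 945 CPM. No lymphoma reached the lowest CD4 library. The means were 452 ± 88 (SD, n = 6) and 853 ± 80.8 (SD, n = 3) CPM, a 1.89-fold fall (log2 fold change -0.92, SE 0.176, edgeR adjusted p = 0.00121).

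Jak3 (ENSMUSG00000031805, chr8:71676296-71690575, plus strand), which binds the common gamma chain and is made mainly in blood cells, ranged in the lymphomas from 8.19 CPM over a median of 11.8 to 16 CPM. It was 23.4, 29.3 and 18.4 CPM in CD4 1, 2 and 3, so that the groups stayed apart but CD4 3 and the highest lymphoma were close. The fall was 1.95-fold (log2 fold change -0.97, SE 0.264, edgeR adjusted p = 0.0104). Without CD4 2 the log2 fold change was -0.78 and the adjusted p 0.0659, which ends the call. Jak3 shares 404 exonic bases on the same strand with Insl3, which had 0 counts in every library, and 42.8% of the 30-base words at its transcript ends occur in Insl3, so reads there may have been set aside as ambiguous.

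The ratio of Jak1 to Jak3 counts within a library, which does not depend on how libraries are scaled, showed no change past the threshold. Its log2 value was 5.23 ± 0.35 (SD, n = 6) in lymphoma and 5.19 ± 0.46 (SD, n = 3) in CD4, with overlapping libraries (difference 0.04, exact two-sided permutation p = 0.786, adjusted p = 0.786 over 4 ratios). It compares the groups, not the amounts of the 2 kinases.

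Among the STATs, Stat4 and Stat3 fell and the other 3 did not pass the threshold. Stat3 (ENSMUSG00000004040, chr11:100885098-100939540, minus strand), which carries signals of interleukin-6 and interleukin-21, ranged from 81.1 CPM over a median of 93.6 to 143 CPM in the lymphomas. CD4 1, 2 and 3 held 445, 343 and 287 CPM. Lymphoma 72 was the highest of its group and still below CD4 3, the lowest library of the other. The means were 101 ± 23.3 (SD, n = 6) and 358 ± 80.4 (SD, n = 3), a 3.53-fold fall (log2 fold change -1.82, SE 0.203, edgeR adjusted p = 2.5e-05).

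Stat4 (ENSMUSG00000062939, chr1:51987148-52107189, plus strand) transmits interleukin-12 signals toward the type 1 helper fate. Reads counted for it numbered 11 (lymphoma 34), 231 (53), 7 (56), 11 (70), 15 (72) and 14 (86), against 1239, 800 and 1239 in CD4 1, 2 and 3. Lymphoma 53 thus held most of the Stat4 counts of its group. In CPM this was 21.1 in lymphoma 53 and 0.509 to 1.01 in the other lymphomas, against 118, 96 and 114 in CD4. The fall was 27.2-fold over all lymphomas (log2 fold change -4.76, SE 1.19, edgeR adjusted p = 0.0106). Without lymphoma 53 the log2 fold change was -7.12 (adjusted p = 2.43e-09), and limma voom with all libraries gave -6.46. Stat4 shares 1033 exonic bases on the same strand with Gm28177, so reads there may have been set aside as ambiguous. Of the 30-base words at the transcript ends of Stat4, 4.41% occur in Gm28177, which had at most 2 counts in a lymphoma and 11 in a CD4 library. Lymphoma 53 was also the lymphoma with Cd8a and Eomes, at levels close to those of the CD4 libraries (25.6 to 31.8 and 21.7 to 25.9 CPM), and what the 3 levels share was not tested.

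Stat5a (ENSMUSG00000004043, chr11:100859351-100885169, plus strand), one of the closely related pair that answers interleukin-2 and interleukin-7, was 51.1, 62 and 75.9 CPM as lowest, median and highest of the lymphomas. The CD4 values of 57.4, 61.8 and 74.3 CPM lay inside that range. The log2 fold change was -0.04 (95% interval -0.45 to 0.36, edgeR adjusted p = 0.866).

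Stat5b (ENSMUSG00000020919, chr11:100780731-100850724, minus strand), the other gene of the pair, ranged from 60.6 CPM over a median of 130 to 165 CPM in lymphoma. It was 106, 74.8 and 88.8 CPM in CD4. Every lymphoma except lymphoma 53 lay above every CD4 library. The log2 fold change was 0.50 (95% interval -0.10 to 1.09, edgeR adjusted p = 0.16), and without lymphoma 53 it was 0.63 with an adjusted p of 0.00764, which turns it into a call.

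The log2 ratio of Stat5a to Stat5b counts was -0.97 ± 0.44 (SD, n = 6) in lymphoma and -0.47 ± 0.36 (SD, n = 3) in CD4. The libraries overlapped (difference -0.50, exact two-sided permutation p = 0.167, adjusted p = 0.222 over 4 ratios). Stat5b, Stat5a and Stat3 are neighbours within 158810 bases of chromosome 11. Of this trio only Stat3 passed the threshold. The 3′ ends of Stat5a and Stat3 overlap by 72 bases on opposite strands, and 12.4% of the 30-base words at the ends of Stat5a occur in Stat3 or Stat5b. The strand setting of the counting is not given in the sources used here, so reads of that overlap cannot be assigned and both values carry this limit.

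Stat6 (ENSMUSG00000002147, chr10:127642986-127660957, plus strand), the interleukin-4 and interleukin-13 factor of the type 2 helper fate, was 33.5 CPM at the lowest, 42.9 at the median and 59.2 at the highest in the lymphomas. CD4 libraries held 62.8, 65.9 and 67.3 CPM. All lymphomas lay below all CD4 libraries, lymphoma 53 nearest to them. The log2 fold change was -0.54 (SE 0.212), and the edgeR adjusted p of 0.0548 missed the threshold. In 8 of 17 alternatives it passed, among them DESeq2 (-0.60, adjusted p = 0.0401), limma voom and 3 other scalings of the libraries.

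Stat4 and Stat6, the factors of the opposite helper fates, were set against each other within each library. The log2 ratio of Stat4 to Stat6 counts was 0.91, 0.54 and 0.75 in the CD4 libraries. In lymphoma it was -1.49 in lymphoma 53 and between -6.03 and -5.50 in the rest. The groups did not overlap. The difference was -5.74 (exact two-sided permutation p = 0.0238, the smallest that 6 against 3 libraries allow, adjusted p = 0.0476 over 4 ratios), so Stat4 was lower relative to Stat6 in lymphoma.

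**Figure D2:**
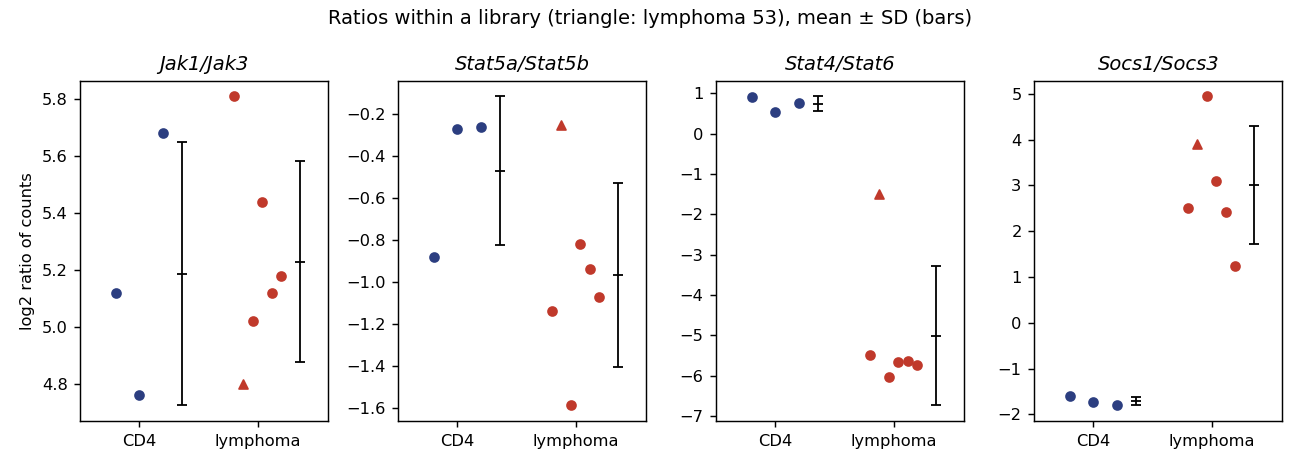
Log2 ratio of counts (y axis, prior count 0.5) of 4 gene pairs in each CD4 library (blue) and lymphoma (red, lymphoma 53 as a triangle), with mean and SD bars. The groups overlap for Jak1/Jak3 and Stat5a/Stat5b and do not overlap for Stat4/Stat6 and Socs1/Socs3, and the axes differ between panels.

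All 3 feedback inhibitors fell, by very different amounts. Socs1 (ENSMUSG00000038037, chr16:10782240-10785536, minus strand), which blocks JAK kinases and restrains interferon-gamma signals, was 5.53, 8.88 and 9.23 CPM as lowest, median and highest of the lymphomas. CD4 1, 2 and 3 held 18.2, 18.6 and 16.1 CPM. The lymphomas were tightly grouped apart from lymphoma 56, the lowest. Socs1 fell 2.15-fold (log2 fold change -1.10, SE 0.25, edgeR adjusted p = 0.00348).

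Socs3 (ENSMUSG00000053113, chr11:117966079-117970047, minus strand), the inhibitor that acts on receptors with the gp130 chain and a known STAT3 target, gave 24 reads (lymphoma 34), 6 (53), 2 (56), 17 (70), 26 (72) and 45 (86). CD4 1, 2 and 3 gave 582, 516 and 610 reads. The lymphomas spread from 0.146 to 3.25 CPM around a median of 1.29, with lymphoma 86 highest, and the CD4 libraries were even, at 55.5, 61.9 and 56 CPM. The fall was 41.6-fold (log2 fold change -5.38, SE 0.567, edgeR adjusted p = 2.37e-05).

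Cish (ENSMUSG00000032578, chr9:107296026-107302784, plus strand), the inhibitor induced by STAT5 that dampens interleukin-2 and T cell receptor signals, had 6, 2, 0, 17, 6 and 2 counts in the lymphomas in the same order. CD4 libraries had 130, 147 and 219 counts, or 12.4, 17.6 and 20.1 CPM. Lymphoma 70, with 1.04 CPM, was the highest of its group, and lymphoma 56 had no count, which allows up to 3. The fall was 44.2-fold (log2 fold change -5.47, SE 0.698, edgeR adjusted p = 6.73e-05), and without lymphoma 70 the log2 fold change was -6.09. Non-coding genes on the opposite strand share 23.8% of the 30-base words at the ends of Cish, and both had 0 counts in every library. The transcripts of Stat5a and Stat5b, whose proteins induce Cish, did not pass the threshold in the same libraries.

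Immediate early genes have transcripts that rise within minutes of stimulation or cell handling. Their sums differed among the CD4 libraries, at 1102, 1486 and 3878 CPM in CD4 1, 2 and 3, and were 282 to 457 CPM in lymphoma. Of these 16 genes, 14 were lower, and 1 of the falls passed the filter with the help of CD4. By comparison, 21.9% of all tested genes were lower and 24.7% higher. In the same order of CD4 libraries Socs3 was 55.5, 61.9 and 56 CPM, Cish 12.4, 17.6 and 20.1 CPM and Socs1 18.2, 18.6 and 16.1 CPM. An order over 3 CD4 libraries is too little to read, and the part of handling in the fall of the inhibitors was not tested.

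The log2 ratio of Socs1 to Socs3 counts turned from -1.60, -1.73 and -1.79 in the CD4 libraries to values between 1.24 and 4.94 in the lymphomas. No library of one group reached the other. The difference was 4.72 (exact two-sided permutation p = 0.0238, the smallest possible, adjusted p = 0.0476 over 4 ratios), so Socs3 fell more than Socs1 in relation to its level in CD4.

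The rest of the family held changes in both directions, with 3 of the 8 other genes described here lower, 2 higher and 3 not past the threshold (median log2 fold change 0.07). Among all tested genes 21.9% were lower and 24.7% higher. Stat2, which carries type I interferon signals, averaged 61.3 ± 1.38 CPM over the CD4 libraries (SD, n = 3) but 14.9 ± 3.12 CPM over the lymphomas (SD, n = 6). It fell 4.09-fold (log2 fold change -2.03, SE 0.2, edgeR adjusted p = 1.03e-05), every lymphoma below every CD4 library. Socs2, an inhibitor of growth hormone signals, fell 13.2-fold (log2 fold change -3.72, edgeR adjusted p = 0.00285), with 0 to 44 counts in the lymphomas, the most in lymphoma 53, and 132 to 231 in CD4. The log2 fold change of Socs2 was -4.38 without lymphoma 53 and -4.68 with limma voom. Jak2, the kinase of haematopoietin and interferon-gamma receptors, fell 1.85-fold (edgeR adjusted p = 0.019), and in 4 of 17 alternatives that call was lost.

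The genes that rose were Socs7 and Socs6. Socs7 rose to 113 ± 21.8 CPM (SD, n = 6) in lymphoma over 58.7 ± 15.1 CPM (SD, n = 3) in CD4 (log2 fold change 0.95, edgeR adjusted p = 0.00372), every lymphoma above every CD4 library. Socs6 rose 2.04-fold (log2 fold change 1.03, edgeR adjusted p = 0.00807). In lymphoma 53 it was 14.3 CPM, within the CD4 range of 12.4 to 14.8 CPM, and it was 27.9 to 33 CPM in the other lymphomas. Tyk2 (log2 fold change 0.49), Socs4 (-0.35) and Socs5 (0.63) did not pass the threshold, and the value of Socs4 was 0.35 under the offset for GC content and length. Tyk2, the kinase of interferon and interleukin-12 receptors, was 86, 116 and 103 CPM in lymphomas 53, 56 and 86. It was 25.1 to 30.1 CPM in lymphomas 34, 70 and 72, with the CD4 values of 41.1, 47.2 and 49.6 CPM in between. Lymphomas 34, 70 and 72 also shared their most used T cell receptor beta V segment, Trbv12-1 (66, 45 and 47 counts). Whether the Tyk2 levels go with that segment was not tested.

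**Figure D3:**
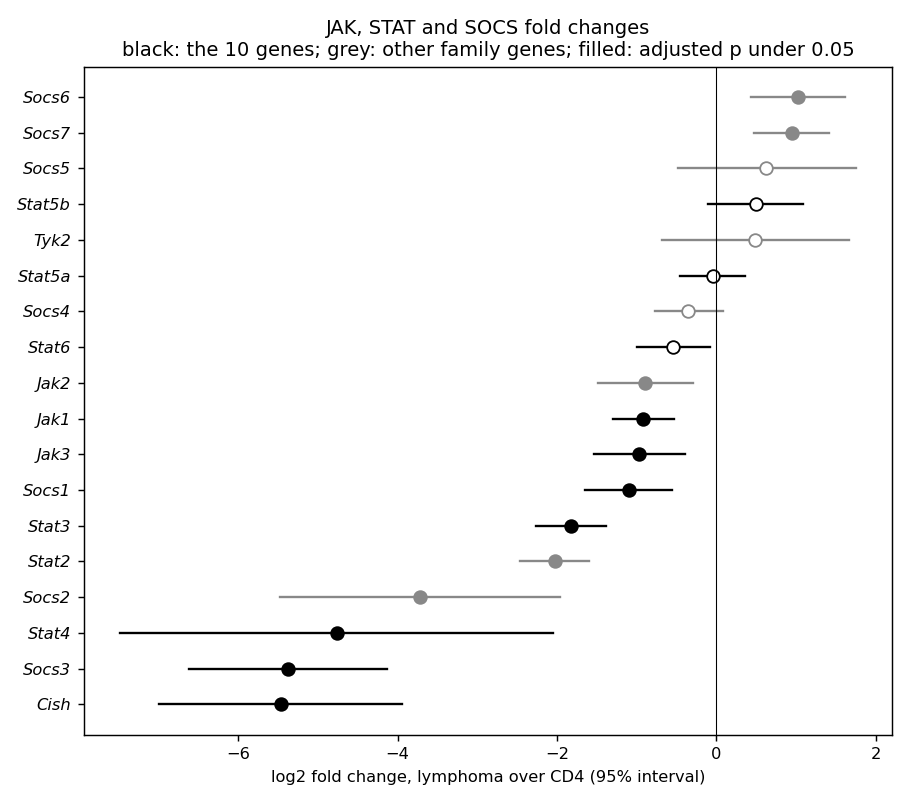
Log2 fold change of lymphoma over CD4 (x axis) with its 95% interval for the 10 genes (black) and 8 other family genes (grey), filled where the edgeR adjusted p is under 0.05. The 3 largest falls, of Cish (-5.47), Socs3 (-5.38) and Stat4 (-4.76), lie to the left of all other family genes, and the wide interval of Stat4 goes with the single lymphoma 53.

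Upstream of the kinases, receptor chains mostly fell: of 24 tested of 27 listed, 15 were lower, 3 higher and 6 not past the threshold. The shares over all tested genes were 21.9% lower and 24.7% higher. The median log2 fold change of the receptor chains was -1.46. The 3 largest falls were those of Il2ra, the high-affinity chain for interleukin-2 (52.6 ± 4.53 CPM in CD4, 0 to 0.393 CPM in lymphoma, log2 fold change -7.92, edgeR adjusted p = 7.33e-07, passed through CD4), Il6ra (-5.11) and Il7r (-3.99). For Il6ra the CD4 mean of 251 ± 22.8 CPM (SD, n = 3) stood against 7.29 ± 4.92 CPM (SD, n = 6) in lymphoma. Il7r, the chain through which resting T cells receive survival signals, fell from 480 ± 65.9 to 30.4 ± 21 CPM (means ± SD). Il2rg, the common gamma chain that Jak3 binds, fell 2.56-fold (log2 fold change -1.35, edgeR adjusted p = 1.03e-05) and was named after its value had been seen.

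Receptor chains that rose were Il12rb1, Il9r and Il6st. Il12rb1, the chain shared by the receptors of interleukin-12 and interleukin-23, rose from 6.97, 2.04 and 6.61 CPM in CD4 to 21.3 to 31.9 CPM in lymphoma (log2 fold change 2.39, edgeR adjusted p = 0.000237). In the same lymphomas Stat4, which acts below that receptor, fell. Il9r rose 3.28-fold (12 ± 1.52 to 39.5 ± 5.39 CPM, log2 fold change 1.71, edgeR adjusted p = 4.13e-05). Il6st, the gp130 chain, had a log2 fold change of 0.46 (edgeR adjusted p = 0.0434) that was lost in 10 of 17 alternatives, DESeq2 among them.

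Few cytokine genes had enough counts to be tested: 8 of 20 listed passed the filter. Among them 5 fell, none rose and 3 did not pass the threshold (median log2 fold change -2.35). The shares over all tested genes were 21.9% lower and 24.7% higher. Of the 8 tested, 5 passed the filter with the help of CD4, having fewer than 3 lymphomas above its minimum, and 4 of these are among the falls, so the count of falls is no support for a direction. The largest falls were of Ifng (log2 fold change -5.66), Il12a (-4.92) and Il10 (-3.83), all among those 5. These were low in CD4 as well and uneven there, Ifng at 6.2, 1.92 and 21.2 CPM and Il10 at 4.01, 0.24 and 7.16 CPM. Without CD4 3 the log2 fold change of Ifng was -4.39, and without lymphoma 86 it was -6.73. For Il10 it was -2.99 without CD4 3, with an adjusted p of 0.0862, which ends that call.

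Of 19 regulators of the pathway in the table, 6 fell, 4 rose and 9 did not pass the threshold (median log2 fold change -0.25). Over all tested genes 21.9% were lower and 24.7% higher, so these counts are not read as a trait of the regulators. Ptprc, the CD45 phosphatase that can dephosphorylate JAKs, fell to 548 ± 82.1 CPM (SD, n = 6) in lymphoma, with 2392 ± 149 CPM (SD, n = 3) in CD4 (log2 fold change -2.13, edgeR adjusted p = 7.59e-07). Cblb, a ubiquitin ligase that restrains T cell activation, fell 3.62-fold and Usp18, an inhibitor of interferon receptor signals, 3.41-fold. The largest rises were of Tceb1 (log2 fold change 1.03), Rnf7 (0.97) and Tceb2 (0.88). Tceb1 and Tceb2 encode the elongins C and B, which link the SOCS box to its cullin ligase, and Rnf7 a RING subunit of that ligase. The rise of Tceb2 was lost under an offset for GC content and length (0.36, adjusted p = 0.157).

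Of 30 genes known as STAT targets, 25 fell, 2 rose and 3 did not pass the threshold, with a median log2 fold change of -2.46. Among all tested genes 21.9% were lower and 24.7% higher. The 30 genes are targets of many other factors too, and some stand also in the lists of regulatory T cell, cytotoxic or immediate early genes. Of those lists, 7 of 9, 6 of 9 and 14 of 16 genes were lower in lymphoma, of which 4, 5 and 1 passed the filter with the help of CD4. The cytotoxic list, with 1 gene higher, nevertheless summed to 336 to 817 CPM in the lymphomas and 237 to 257 CPM in CD4. Among the 25 falls, 7 were of genes that passed the filter with the help of CD4 and could only be tested by being high there. Gzmb, Il2ra and Myc had the lowest fitted values and passed through CD4, but the fitted value of Gzmb, a gene at 0 in one group, gives it no rank. Gzmb, the cytotoxic granzyme B, had 0 counts in all lymphomas and 20 to 35 in CD4, at least 9.77-fold lower by the floor of 3 counts in the lymphoma library of the highest floor. Myc was 21.8, 26.5 and 22.7 CPM in CD4 and at most 0.361 CPM in lymphoma (log2 fold change -7.18, edgeR adjusted p = 6.26e-06). Pim3, a kinase, and Gata3, the type 2 helper factor, each had a log2 fold change of 0.93 with overlapping groups (edgeR adjusted p = 0.0229 and 0.0415), and these calls were lost in 4 and 13 of 17 alternatives.

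**Figure D4:**
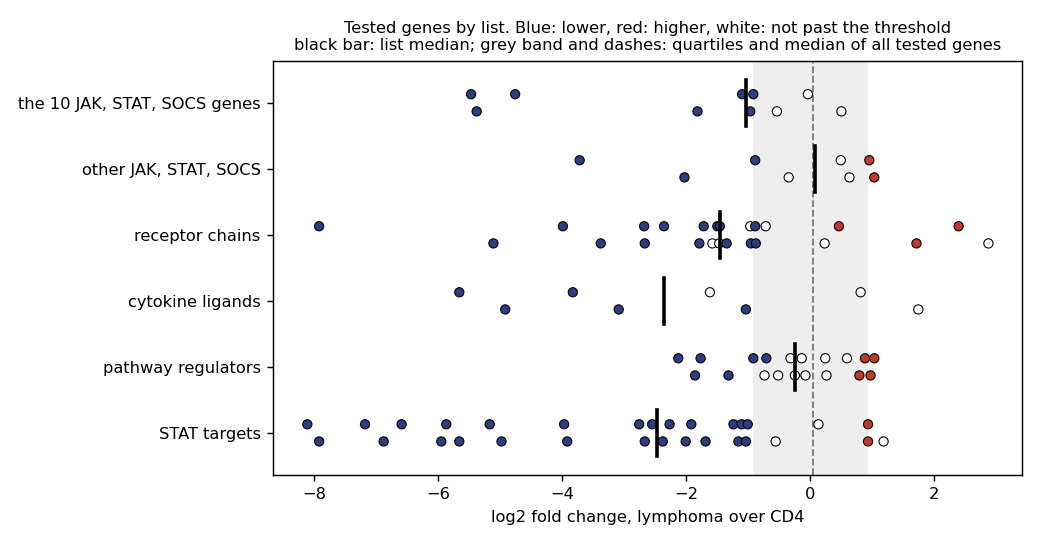
Log2 fold change of lymphoma over CD4 (x axis) of each tested gene in 6 lists (rows), blue where lower, red where higher and white where not past an edgeR adjusted p of 0.05, with the list median as a black bar and the quartiles of all tested genes as a grey band. The medians run from -2.46 for STAT targets to 0.07 for the other family genes, with -1.04 for the 10 genes.

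The tested genes whose pattern over the 9 libraries was nearest to that of Cish, the gene of the 10 with the largest fall, were Hid1, Gfra2 and Apol7e. Their root-mean-square differences from Cish in centred log2 CPM were 0.47, 0.50 and 0.50. Gfra2 passed through CD4, with 0 lymphomas above the minimum of the filter. Hid1 ranged from 1 to 21 reads in the lymphomas and 167 to 271 in CD4. Its highest lymphoma, as for Cish, was lymphoma 70, a likeness that the choice by pattern favours. No gene of the 10 rose, so no nearest pattern was sought for a rise.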

How the data were processed

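The authors deposited 1 table with, per the file headers, Ensembl IDs, symbols and raw counts of reads in each library. Per the submitters' processing notes, FastQC, HISAT2, SAMtools and HTSeq were used with the builds mm10 and GRCm38. Versions, annotation and strand setting are not given in the sources used here. The table's 5 summary rows entered neither library sizes nor tests. They held, among other reads, 3.74 to 5.07% ambiguous reads in lymphoma and 4.69 to 5.96% in CD4, and 16.1 to 18.6% and 11.6 to 14% aligned to several places, all left uncounted. Reads in no feature made up 16.6 to 22.5% in lymphoma and 30.4 to 33.3% in CD4, with no overlap. Their total share is what reads in genes (38.7 to 49.1% and 27.8 to 35%) leave.

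The test was edgeR 4.0.16 under R 4.3.3 (filterByExpr by group with minimum count 10, TMM scaling, robust quasi-likelihood fit and test, no covariate, all 9 libraries), adjusted by Benjamini-Hochberg over 15401 genes, threshold 0.05. CPM is per 1000000 of the TMM-scaled library size. Ratios used a prior count of 0.5 and exact permutation (scipy 1.17.1). Only the edgeR step was tested on simulated counts, which had the same dispersion for every gene and no outlying library. Alternatives were other scalings, no filter, DESeq2 1.42.0, limma 3.58.1 voom, a GC and length offset (mgcv 1.9.3), averaged libraries and leaving out each library. GENCODE M21 (GRCm38) gave positions for the 10 genes, and RefSeq start windows their sequences.

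The genes and lists were chosen with earlier results of these data known. Named genes are the 10 genes, the other family members (1 is not reported here), up to 3 largest rises and 3 largest falls past the threshold in each other list, and the 3 genes nearest in pattern to the largest fall. With no molecular identifiers, reads need not be separate molecules, and the floors cover counting error only. The intervals come from the same edgeR fit as the p-values, so they measure the spread between these libraries.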

Additional observations from a re-analysis of the deposited data

Results flagged for a closer look

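Among the 6 lymphomas, 43 values (the 10 genes, 29 other named genes and 4 ratios) were examined for a library whose gap to its nearest neighbour took up more of the group's range, in log2 CPM or log2 ratio, than Dixon's 95% critical value for 6 samples. Of these, 7 lay above it, and 5 of the 7 concern lymphoma 53. Chance would give about 2.15 if the values were separate. They come from the same 6 libraries and the ratios reuse genes already examined, so 7 against 2.15 does not measure an excess. Lymphoma 53 was high for Stat4 (gap over range 0.838) and for the ratio of Stat4 to Stat6 (0.883). It was low for Stat5b (0.639), Socs6 (0.801) and Pim3 (0.653). Lymphoma 56 was low for Socs1 (0.652) and lymphoma 34 low for Il12rb1 (0.626). Lymphoma 53 also had the fewest gene counts of the 6 lymphomas (11170704) and the smallest share of reads in genes (38.7%). Its shares of ambiguous reads (5.07%) and of reads not aligned (18.8%) were the largest of the 6. No cause was tested.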

How the results depend on the processing

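Of the 10 genes, 7 kept their side of the threshold in all 17 alternatives, and 6 of these also their direction. Stat5a, which was not called, ran from -0.25 to 0.08 and was above 0 without lymphoma 34 (0.05), lymphoma 53 (0.0028), lymphoma 56 (0.01) or CD4 3 (0.08). No direction of a called value reversed. The genes that crossed the threshold were Jak3 (lost without CD4 2), Stat5b (higher without lymphoma 53) and Stat6 (lower in 8). The number of the 10 called ran from 6 without CD4 2 to 9 without lymphoma 53, and that of all genes from 5871 to 8137. The median log2 fold change of all tested genes was -0.06 with upper quartile scaling, 0.12 with the GC and length offset and 0.20 without a filter. Among the 30 other named genes, 24 did not change their call. The log2 differences of Stat4/Stat6 and Socs1/Socs3 were -5.60 and 4.52 with a prior count of 2. Leaving out 1 library gave -6.45 to -5.54 and 4.34 to 5.08, and averaging lymphomas 34, 70 and 72, whose most used T cell receptor beta V segment was the same, gave -5.45 and 4.89. In these smaller sets the adjusted p was 0.0714 to 0.143, because fewer assignments leave no smaller one. No paired analysis was possible because the lymphomas and CD4 libraries share no replicate number. Depth limits Cish, Socs3 and Stat4, which had few counts in most lymphomas.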
